A study of Mus musculus with 6 samples.

Results

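The 35 genes described here act in homologous recombination, the Fanconi anemia pathway and the DNA damage checkpoint. They were chosen by name, with earlier results of these data known. All 35 were found among the 36528 gene identifiers listed for every library. RNA was measured in CD49f+ CD34+ GFP- hair follicle stem cells sorted from the skin of Lgr5-DTReGFP mice given diphtheria toxin (DT, 3 libraries) or saline (NaCl, 3 libraries). All 6 libraries come from mice with the same allele, in which cells that express Lgr5 also carry the DT receptor and eGFP, so that DT kills them. The sorted cells were negative for the reporter. None of the samples is from a mouse that lacks the receptor and was given DT. Neither the dose, the time after DT, the age of the mice nor whether a library is 1 animal is given in the labels, so the p-values below cover only how far these libraries differ among themselves, and that spread may be technical.

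Homologous recombination copies an intact sister chromatid to mend a broken chromosome or a stalled replication fork. Broken ends are first trimmed to leave single strands. With the help of BRCA1, PALB2 and BRCA2 these strands then invade the intact copy, and helicases and nucleases take the joined molecules apart. The kinases ATM and ATR sense the damage and, through CHK2 and CHK1, hold the cell cycle. Most of these genes are best known from dividing cells, since a sister chromatid is present only after DNA replication, while bulge stem cells of the hair follicle are mostly quiescent between growth phases.

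The libraries held 15300755 to 25558859 reads in genes, and 15132 genes were tested. Of all genes tested 29.0% passed at an adjusted p under 0.05 (edgeR quasi-likelihood test, Benjamini-Hochberg), 17.2% higher and 11.9% lower in DT. With scaling by library size only, 2099 genes were higher and 2316 lower, in place of 2600 and 1795. Levels are given in CPM, which are reads scaled to a common library size with TMM factors. The sort markers were not called (adjusted p = 0.264 for Cd34 and 0.16 for Itga6): Cd34 averaged 2348 ± 403 CPM in DT and 2804 ± 355 CPM in saline, and Itga6 (CD49f) 98.8 ± 10.5 CPM in DT and 122 ± 20.5 CPM in saline (SD, n = 3 each). Lgr5 RNA averaged 7.11 ± 0.143 CPM in DT and 24 ± 7.2 CPM in saline, a fall (log2 -1.76, adjusted p = 0.000864), and was low in these reporter-negative cells of both groups. The bulge keratin Krt15 averaged 33362 ± 9506 CPM in DT and 34813 ± 6583 CPM in saline and was not called (adjusted p = 0.854). Of the 12 bulge stem cell markers tested, which include these 4 genes, 6 fell and 1 rose. Besides Lgr5, Grem1 (log2 -1.45), Lhx2 (-1.09), Sox9 (-0.71), Nfatc1 (-0.69) and Postn (-0.52) fell, and Krt14 rose (1.78). Among markers of other cells, 4 of 9 immune markers tested fell and Itgam rose, with a summed level of 126 to 156 CPM in DT and 190.2 to 265 CPM in saline. The 7 fibroblast markers summed to 9.53 to 16.9 CPM in DT and 23.7 to 41.7 CPM in saline, with Lum at 0 in all 6 libraries and 1 of 2 tested lower, and the 5 endothelial markers to 8.02 to 11.9 CPM in DT and 3.19 to 23.6 CPM in saline, with 0 of 4 called. Summed melanocyte markers were at 64.8 to 83.7 CPM in DT and 99.6 to 142 CPM in saline, with 3 of 5 lower. The suprabasal markers summed to 567 to 794 CPM in DT and 876 to 1159.6 CPM in saline, with 3 of 6 lower, and the sebaceous markers to 209.8 to 253 CPM in DT and 269 to 289 CPM in saline, with 0 of 5 called. Their part in the results below was not tested.

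Of the 35 members 34 passed the filter on low counts, and 21 of these 34 rose in DT while 0 fell. Over all genes tested 17.2% rose and 11.9% fell. Hfm1, among the 21, passed the filter only through its DT reads and could hardly be called lower. At an unadjusted p under 0.05, 1 member, Atm, was lower in DT, and DESeq2 and limma-voom called 0 lower. The median log2 fold change of the 34 was 0.93, against -0.01 over all genes tested. Every DT library lay above every saline library for 24 members, which held for 25.4% of all genes tested. The members were chosen with earlier results of these data known, so these counts do not describe a set picked independently of the data. A change in the number of cells with a transcript and a change in its level per cell cannot be told apart in these bulk libraries. Left out in turn, the libraries gave 15 members higher without DT library 2, 16 without DT library 3 or saline library 2, and 23 without DT library 1.

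The members differ in their promoters as well as in their response, and 6 stretches are shown to set the letters beside the values that follow. RefSeq (GRCm38.p6) gave a promoter for 27 of the 35 members, covering 250 bases before to 50 after the start of a gene. A window with TTTCCCGC, TTTGGCGC or TTCCCGCC on either strand, letters of the E2F type, was found for 11 of the 27 members (40.7%). One was held by 3.7% of all 27025 genes with a promoter and by 6.6% of the 11202 such genes that were tested. TTTCCCGC and TTCCCGCC can overlap each other. The share was 37.5% (6 of 16) among members that rose and 45.5% (5 of 11) among those not called. CCAAT, of the NF-Y type, stood in 51.9% of members, 41.1% of all genes and 42.4% of genes tested. TTTGAA, of the CHR type, stood in 11.1% of members, 20.2% of all genes and 14.7% of genes tested. Members that rose held CCAAT in 56.2% and TTTGAA in 18.8% (3 of 16). Those not called held CCAAT in 45.5% and TTTGAA in 0.0% (0 of 11). A match is a string of letters in this window and does not show binding.

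The 200 bases before the start are printed below, 5′ to 3′ on the gene's own strand, with letters of the E2F type and CCAAT on either strand in capitals. The first 4 genes rose in DT and the last 2 were not called.
Brip1, chr11:86201194-86201393, minus strand: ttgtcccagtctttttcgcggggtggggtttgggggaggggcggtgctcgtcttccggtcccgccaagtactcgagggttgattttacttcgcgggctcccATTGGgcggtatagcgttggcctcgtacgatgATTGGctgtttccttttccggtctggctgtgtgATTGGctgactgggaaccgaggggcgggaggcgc
Mdc1, chr17:35841298-35841497, plus strand: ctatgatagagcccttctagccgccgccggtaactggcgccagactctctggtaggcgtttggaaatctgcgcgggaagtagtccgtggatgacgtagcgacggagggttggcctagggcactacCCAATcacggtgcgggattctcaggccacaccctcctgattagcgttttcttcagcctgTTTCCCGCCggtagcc
Fancm, chr12:65075403-65075602, plus strand: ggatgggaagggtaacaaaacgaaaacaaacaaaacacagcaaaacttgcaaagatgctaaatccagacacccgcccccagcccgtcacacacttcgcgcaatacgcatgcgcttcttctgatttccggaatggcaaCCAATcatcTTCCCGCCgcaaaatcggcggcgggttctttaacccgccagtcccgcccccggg
Hfm1, chr5:106925891-106926090, minus strand: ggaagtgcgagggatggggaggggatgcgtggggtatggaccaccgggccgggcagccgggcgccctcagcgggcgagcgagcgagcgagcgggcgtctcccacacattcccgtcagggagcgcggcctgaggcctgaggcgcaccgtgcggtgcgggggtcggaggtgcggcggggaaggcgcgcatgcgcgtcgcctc
Brca2, chr5:150522421-150522620, plus strand: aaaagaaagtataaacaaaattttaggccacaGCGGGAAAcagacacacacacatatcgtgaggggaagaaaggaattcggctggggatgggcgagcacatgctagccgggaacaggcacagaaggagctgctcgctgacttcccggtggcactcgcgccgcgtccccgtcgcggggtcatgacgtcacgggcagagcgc
Chek2, chr5:110839783-110839982, plus strand: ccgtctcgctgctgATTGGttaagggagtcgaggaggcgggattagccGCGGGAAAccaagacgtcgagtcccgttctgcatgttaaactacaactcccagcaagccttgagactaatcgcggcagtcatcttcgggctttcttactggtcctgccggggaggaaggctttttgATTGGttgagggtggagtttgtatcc

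Brip1 shows 3 CCAAT words in reverse, starting at positions -99, -67 and -34 from the start, and no word of the E2F type. In Mdc1 the E2F words at -16 and -15 overlap each other, and in Fancm CCAAT at -63 stands just before the E2F word at -54. Hfm1, the member with the greatest change, shows neither. The E2F words of Brca2 and Chek2 lie farther out, at -168 and -152, and read in reverse. Chek2 also shows CCAAT in reverse at -186 and -26. Among members not printed, position and strand did not divide in this way. Rad51c, not called, held E2F words at -5 and -6, and Bard1, which rose, held one at -209. Those of Rad51ap1, Chek1 and Polq, which rose, read in reverse.

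**Figure D1:**
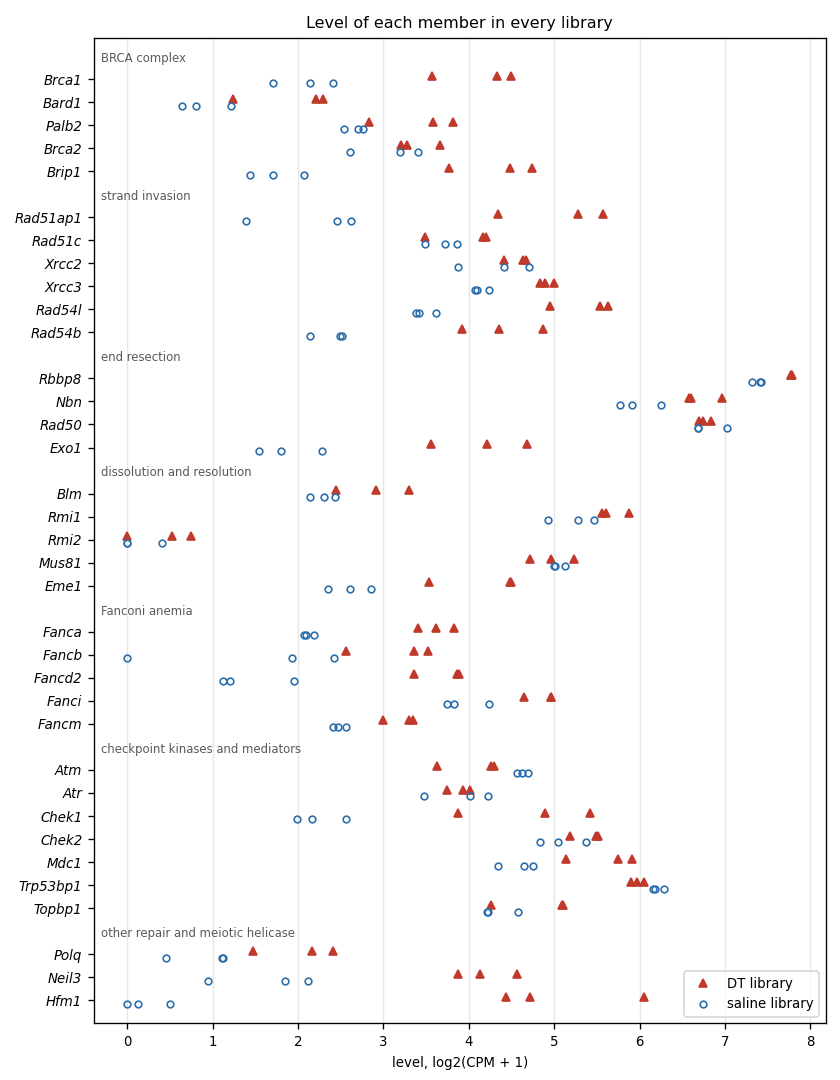
Level of each of the 35 members, as log2(CPM + 1), in the 3 DT libraries (filled triangles) and the 3 saline libraries (open circles), ordered by role. All triangles lie to the right of all circles for 24 of the 34 members tested, and to the left of them for Atm and Trp53bp1. Of all 15132 genes tested, 3838 lay to the right in this way and 3103 to the left.

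Among BRCA1 and its partners, 4 of 5 members rose. Brca1 (Entrez 12189, chromosome 11 from 101488761 to 101551955 in GRCm38), the ubiquitin ligase that promotes end trimming and brings in PALB2, was at 10.9, 21.5 and 19.1 CPM in the DT libraries and 4.31, 2.27 and 3.39 CPM in the saline libraries. Its lowest DT library lay above its highest saline library, and its log2 fold change was 2.36 (SE 0.33, adjusted p = 0.000916). Brip1 (Entrez 237911, chromosome 11 from 86058136 to 86201215), a helicase that binds BRCA1, was at 12.6, 25.7 and 21.4 CPM in DT and 1.7, 3.19 and 2.26 CPM in saline. The groups did not overlap, and the change of Brip1 was the greatest of these 5 genes at 3.06 (SE 0.34, adjusted p = 0.000262). Bard1, the partner of BRCA1 in the ligase, was scarce, with 29 to 91 reads per library in DT and 13 to 32 in saline. At 1.36, 3.89 and 3.63 CPM in DT and 1.33, 0.74 and 0.564 CPM in saline, its lowest DT library was almost level with saline library 1. It rose by 1.74 (SE 0.54, adjusted p = 0.0345), a call lost without DT library 2 or 3 or saline library 2 or 3 (adjusted p 0.0944 to 0.142).

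Palb2, which links BRCA1 to BRCA2, averaged 10.1 ± 3.59 CPM in DT and 5.38 ± 0.504 CPM in saline (SD, n = 3 each). It passed narrowly (log2 0.90, adjusted p = 0.0477) and did not pass with library size scaling (adjusted p = 0.0752), with limma-voom (0.0782), or without DT library 2 or 3 or any 1 saline library (adjusted p 0.0725 to 0.213). Brca2 (Entrez 12190, chromosome 5 from 150522297 to 150570147), which readies the single strands for invasion, was at 8.68, 8.19 and 11.7 CPM in DT and 9.61, 5.09 and 8.16 CPM in saline. These groups overlapped, and Brca2 was not called (log2 0.32, SE 0.29, adjusted p = 0.426).

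Of the 6 genes that act in strand invasion, 4 rose. Rad51ap1 (Entrez 19362, chromosome 6 from 126923415 to 126939621), which helps strands to pair, was at 19.3, 46.7 and 37.9 CPM in DT and 5.14, 1.62 and 4.47 CPM in saline. Both groups were spread, DT library 1 standing well under the other two, but they did not overlap (log2 3.20, SE 0.43, adjusted p = 0.000773). The translocases Rad54l and Rad54b, which remodel the paired strands, rose by 2.03 (SE 0.22, adjusted p = 0.000213) and 2.27 (SE 0.29, adjusted p = 0.000559). Rad54l averaged 41.3 ± 9.95 CPM in DT and 10.1 ± 1.01 CPM in saline (SD, n = 3 each). Exons of Rad54l share 1184 bases with Lrrc41 on the other strand, and exons of Rad54b share 2068 bases with Fsbp on the same strand, so a part of their reads is uncertain. Lrrc41 rose by 0.52 (adjusted p = 0.0276), and Fsbp was not called (log2 0.56, adjusted p = 0.429).

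Xrcc3, Rad51c and Xrcc2 did not move together. Xrcc3 was at 27.6, 31 and 28.6 CPM in DT and 17.8, 15.8 and 16.1 CPM in saline, with little spread in either group, and rose by 0.81 (SE 0.16, adjusted p = 0.00537). Rad51c, which acts in complexes with Xrcc2 and with Xrcc3, averaged 14.8 ± 4.04 CPM in DT and 12 ± 1.62 CPM in saline (SD, n = 3 each) and was not called (log2 0.31, SE 0.25, adjusted p = 0.379). Xrcc2 averaged 22.8 ± 2.34 CPM in DT and 19.6 ± 5.75 CPM in saline and was not called either (log2 0.22, SE 0.23, adjusted p = 0.508).

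Of the 4 genes of end trimming, Rbbp8, Nbn and Rad50 had the highest levels of all members, with log2 fold changes under 1, and Exo1 was scarcer and changed more. Rbbp8 encodes CtIP, which starts the trimming with the MRE11, RAD50 and NBS1 complex. It was at 218, 220.1 and 217 CPM in DT and 158, 169 and 171 CPM in saline. The libraries of each group were close, and Rbbp8 rose by a small step (log2 0.40, SE 0.11, adjusted p = 0.0274), a call lost without any 1 library other than DT library 1 (adjusted p 0.0623 to 0.117). Nbn, which encodes NBS1, averaged 105 ± 16.8 CPM in DT and 62.6 ± 11.2 CPM in saline and rose by 0.74 (SE 0.17, adjusted p = 0.0102, or 0.0527 without DT library 2). Rad50, the ATPase of the same complex, was at 103, 113 and 106 CPM in DT and 129, 102 and 102 CPM in saline and was not called (log2 -0.05, SE 0.14, adjusted p = 0.817). Exo1, the nuclease that extends the trimming, was at 10.8, 24.7 and 17.5 CPM in DT and 1.91, 3.84 and 2.47 CPM in saline. It stood in every DT library above every saline library and rose by 2.69 (SE 0.37, adjusted p = 0.000816).

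Of the genes that take joined molecules apart, 1 of 4 tested rose. Eme1, the partner of the MUS81 nuclease, was at 10.6, 21.4 and 21.5 CPM in DT and 5.1, 4.12 and 6.21 CPM in saline and rose by 1.79 (SE 0.31, adjusted p = 0.00257). Its exons share 75 bases with Mrpl27 and 221 with Lrrc59 on the other strand, and these rose by 0.58 (adjusted p = 0.0115) and 0.88 (adjusted p = 0.0178). Mus81 itself was at 36.5, 25.2 and 30.2 CPM in DT and 31, 33.8 and 31.3 CPM in saline. The groups of Mus81 overlapped (log2 -0.06, SE 0.17, adjusted p = 0.811). Blm, the helicase of the dissolvase, had every DT library above every saline library (4.45 to 8.86 CPM in DT and 3.39 to 4.39 CPM in saline), yet was not called (log2 0.76, adjusted p = 0.0933, or 0.033 without DT library 1). Its partner Rmi1 was not called either (log2 0.46, adjusted p = 0.0796), and shares 330 exon bases with Hnrnpk on the other strand, which rose (0.47, adjusted p = 0.0262). Rmi2 had 0, 10 and 11 reads in the DT libraries and 0, 7 and 0 in the saline libraries, and was not tested.

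All 5 Fanconi anemia members, which detect and unhook DNA crosslinks, stood in every DT library above every saline library, and 4 were called. Over all genes tested 25.4% stood above in this way and 17.2% were called higher. The 16 other Fanconi anemia genes described below did not share this: 2 stood above and 5 below, and 1 rose and 2 fell. Fancd2 (Entrez 211651, chromosome 6 from 113531640 to 113597020), which is ubiquitinated at the crosslink, was at 9.24, 13.5 and 13.8 CPM in DT and 2.86, 1.3 and 1.17 CPM in saline. Saline library 1 was the highest of its group but far under the DT libraries, and Fancd2 rose by 2.77 (SE 0.38, adjusted p = 0.0008). Fanci, its partner in the clamp, rose less, by 0.95 (SE 0.20, adjusted p = 0.00678), averaging 28.1 ± 3.55 CPM in DT and 14.5 ± 2.93 CPM in saline. Fanca, of the core complex that ubiquitinates the clamp, rose by 1.76 (SE 0.24, adjusted p = 0.000866). Fanci shares 921 exon bases with Polg, and Fanca 920 with Zfp276, each on the other strand. Polg was not called (log2 -0.23, adjusted p = 0.38), nor was Zfp276 (log2 -0.51, adjusted p = 0.151). Fancm, the helicase that anchors the core complex, rose by 0.87 (adjusted p = 0.0244), but not without DT library 2 or 3 or saline library 2 or 3 (adjusted p 0.0626 to 0.119). Fancb, of the core complex, had 105, 157 and 231 reads in DT and 0, 61 and 100 in saline. With 1 saline library at 0 its log2 fold change of 1.78 had an SE of 0.87 (adjusted p = 0.15), and it was 1.18 without saline library 1 (adjusted p = 0.0506) and 2.55 without saline library 3 (adjusted p = 0.101).

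The 7 checkpoint genes were the group with most members not called: Chek1 and Mdc1 rose and 5 did not pass. Chek1 (Entrez 12649, chromosome 9 from 36708482 to 36726658), the kinase that ATR activates at stalled forks, was at 13.6, 41.9 and 28.8 CPM in DT and 3.48, 2.96 and 4.91 CPM in saline. DT library 1 was the lowest of its group, as for 29 of the 35 members, and all 3 lay above saline (log2 2.89, SE 0.39, adjusted p = 0.000793). This place of DT library 1 is not particular to the members. On the first principal component of all genes tested it also lay nearest to saline (-29.14, against -58.81 and -48.01 for DT libraries 2 and 3). Mdc1, the scaffold that reads phosphorylated H2AX, was at 34.3, 52.9 and 59.1 CPM in DT and 19.3, 24.1 and 25.9 CPM in saline, without overlap, and rose by 1.08 (SE 0.22, adjusted p = 0.00584).

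The kinases at the head of both branches did not follow Chek1. Atm (Entrez 11920, chromosome 9 from 53437122 to 53536828), which responds to broken ends, was at 11.4, 18.6 and 18.1 CPM in DT and 24.8, 22.6 and 23.7 CPM in saline. Each DT library lay below each saline library, as for 3103 of all 15132 genes tested. The gene was not called (log2 -0.56, SE 0.21, adjusted p = 0.0723). Scaled by library size only, or with libraries of consecutive identifiers as a pair, it passed the test as lower (adjusted p = 0.0485 and 0.0454). Atr, which responds to single strands, was at 14.3, 12.4 and 15.2 CPM in DT and 15.2, 10.1 and 17.7 CPM in saline, and the groups overlapped (log2 -0.03, SE 0.24, adjusted p = 0.925). Chek2, the kinase under ATM, was not called (log2 0.31, SE 0.19, adjusted p = 0.229). Topbp1, which activates ATR, averaged 28.2 ± 8.65 CPM in DT and 19.3 ± 3.02 CPM in saline and had a log2 fold change of 0.54 (adjusted p = 0.125, or 0.0137 without DT library 1). Trp53bp1 encodes 53BP1, which shields ends from trimming. It was at 65.5, 58.5 and 61.9 CPM in DT and 77, 71.3 and 70.4 CPM in saline, without overlap, and was not called (log2 -0.23, SE 0.13, adjusted p = 0.191). Its exons share 2130 bases with Tubgcp4 on the other strand.

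**Figure D2:**
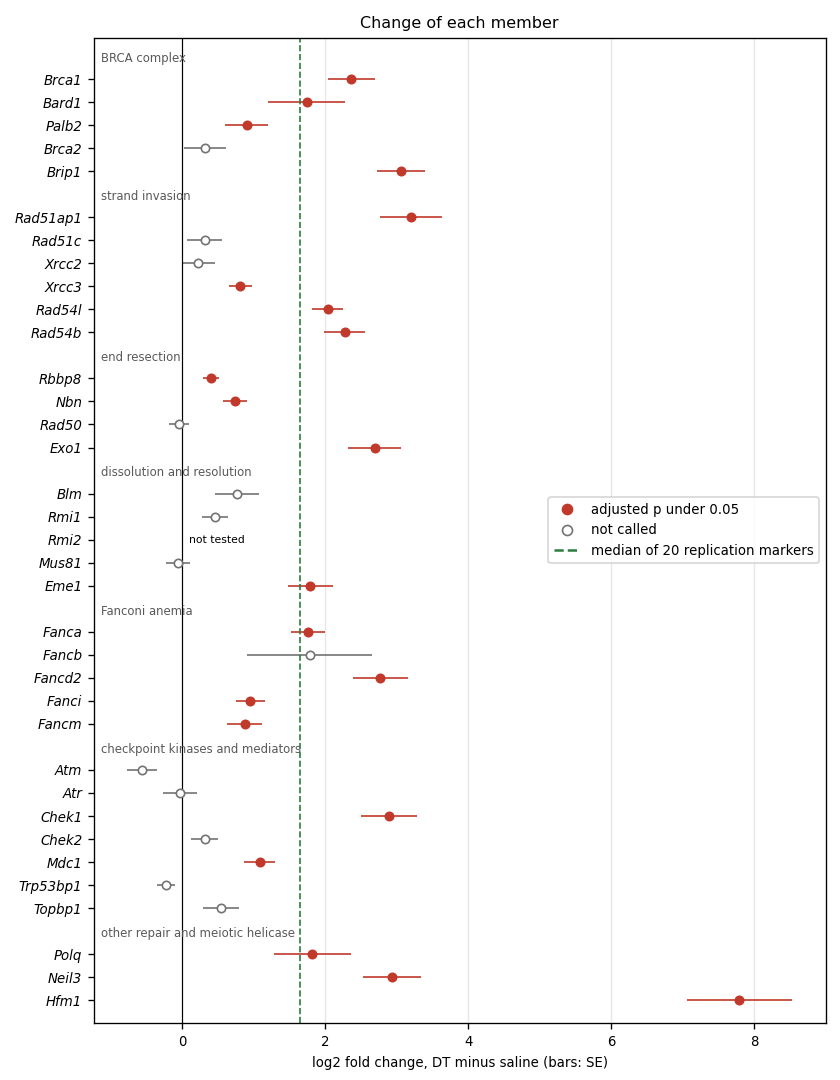
Log2 fold change of each member, DT minus saline, with its SE. Filled points passed the test (21 of 34), open points did not, and the dashed line marks the median of the 20 replication markers, 1.65. Hfm1, at 7.79, stands far from the other members, whose values run up to 3.20.

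The remaining 3 members rose. Hfm1 (Entrez 330149, chromosome 5 from 106840193 to 106926712) encodes a helicase known from crossing over in meiosis. It had 439, 974 and 631 reads in the DT libraries and 0, 9 and 2 in the saline libraries, or 20.6, 65.4 and 25.2 CPM in DT and 0, 0.416 and 0.0868 CPM in saline. DT library 2 was the highest by far, and the gene was at or near 0 in all saline libraries. Its log2 fold change of 7.79 (SE 0.74, adjusted p = 0.000105) rests on 11 saline reads and was 7.17 without saline library 1, 9.58 without saline library 2 and 7.07 without DT library 2. No protein-coding gene or long non-coding RNA gene of the types looked up in GENCODE M21 overlaps Hfm1 or starts within 1000 bases of its start on the other strand. Pseudogenes and small RNA genes were not looked up. Neil3 (Entrez 234258, chromosome 8 from 53586867 to 53639065), a glycosylase that also unhooks crosslinks, was at 13.7, 16.5 and 22.6 CPM in DT and 2.61, 0.925 and 3.34 CPM in saline. It rose by 2.93 (SE 0.41, adjusted p = 0.00091), with no overlap of the groups. Polq, the polymerase of an end-joining route that competes with recombination, had 38 to 87 reads per library in DT and 9 to 27 in saline. It rose by 1.82 (SE 0.54, adjusted p = 0.0296), a call lost without DT library 2 or 3 or saline library 1 or 2 (adjusted p 0.0527 to 0.131).

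On a scale that allows for gene length, the deposited RPKM, the order of the members differed between the groups. Rbbp8 (50.1 ± 1.19 RPKM in DT and 38 ± 1.71 RPKM in saline), Nbn (39.7 ± 7.01 RPKM in DT and 23.6 ± 4.19 RPKM in saline) and Rad50 (19.6 ± 1.26 RPKM in DT and 20.2 ± 2.78 RPKM in saline) held ranks 1 to 3 of 35 in both groups (SD, n = 3 each). In DT the levels of Nbn and Rad50 were apart by more than their SDs, and those of the neighbours Chek2 (13.8 ± 1.99 RPKM) and Mus81 (12.8 ± 2.12 RPKM) were not. Rad51ap1 ranked 4 in DT and 17 in saline, Chek1 9 in DT and 20 in saline, Neil3 10 in DT and 21 in saline, and Hfm1 17 in DT and 35 in saline. Atm ranked 29 in DT and 16 in saline, and Trp53bp1 15 in DT and 6 in saline. The lowest levels in DT were those of Rmi2 (0.0944 RPKM), Polq (0.334 RPKM) and Bard1 (0.492 RPKM).

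Genes of dividing cells moved with the members. All 20 replication and S phase markers tested rose (median log2 1.65), Mcm10 (3.70), Rrm2 (3.09), Mcm5 (2.45) and Mcm3 (2.39) having the smallest p-values. So did all 20 markers of G2 and mitosis (median 3.43). The summed level of the replication markers was 1387, 2599 and 2149 CPM in DT libraries 1 to 3 and 598, 569.8 and 599.6 CPM in saline libraries 1 to 3. That of the mitosis markers was 1074, 2022 and 2128 CPM in DT and 211, 149.9 and 171 CPM in saline. DT library 1 was the lowest of its group for both lists. The members too were lowest in DT library 1, while the order of DT libraries 2 and 3 differed between the mitosis markers and the members. The median of the members against the saline mean was 0.57, 1.09 and 1.02 in DT libraries 1 to 3, on the scale of log2(CPM + 1), and 0.07, -0.03 and -0.03 in the saline libraries. The part of cycling cells in the change of the members was not tested.

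**Figure D3:**
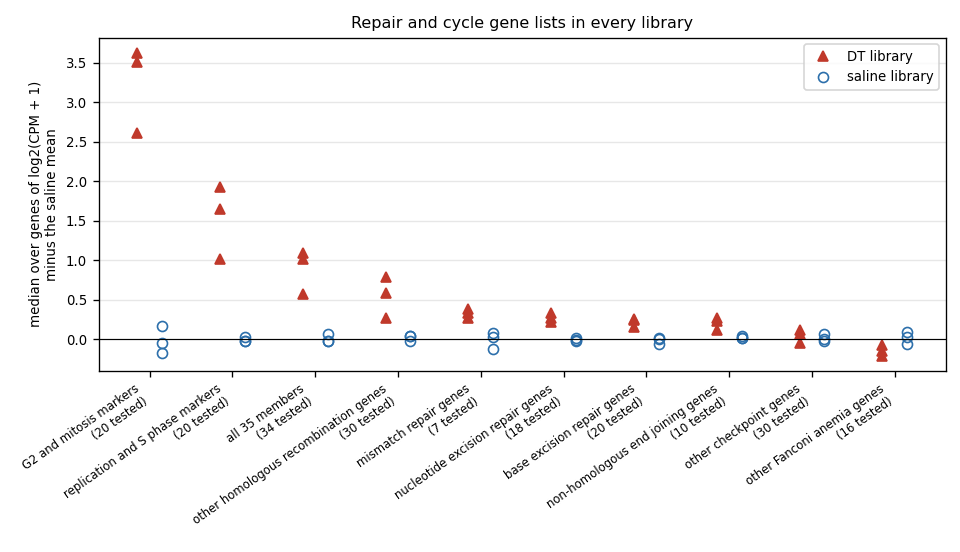
Median over the genes tested of each list, as log2(CPM + 1) minus the saline mean, in the 3 DT libraries (triangles) and the 3 saline libraries (circles). The members lie at 0.57 to 1.09 in DT, and in each DT library under the replication markers (1.01 to 1.93) and the mitosis markers (2.61 to 3.63). Of the 10 lists drawn, the 16 other Fanconi anemia genes are the lowest.

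Set against the replication markers, the members split. The 35 members summed to 69.9, 49.4 and 54.5 reads per 100 marker reads in DT libraries 1 to 3 and 124, 124 and 123 in saline libraries 1 to 3. This ratio does not depend on how libraries are scaled, and its DT to saline ratio was 0.47 (exact two-sided permutation p = 0.1, the smallest that 3 against 3 libraries allow). In saline Rbbp8, Rad50, Trp53bp1 and Nbn averaged 28.2, 18.8, 12.4 and 10.6 reads per 100 marker reads. The sum thus mostly reflects these abundant genes and not the members at large. Of the 34 members tested, 19 had every DT library below every saline library in reads per 100 marker reads, 9 had every DT library above, and 6 overlapped. Since the marker reads themselves rose, a gene at an unchanged level falls on this scale: over all 15132 genes tested the median DT to saline ratio was 0.308, 84.4% had every DT library below and 3.54% every DT library above. The median ratio of the 34 members was 0.564. The 9 were Brca1, Brip1, Rad51ap1, Rad54b, Exo1, Fancd2, Chek1, Neil3 and Hfm1. No test of this kind can pass at 0.05 with these numbers of libraries.

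Chek1 stood at 0.977, 1.61 and 1.34 reads per 100 marker reads in DT and 0.582, 0.52 and 0.818 in saline, a DT to saline ratio of 2.05. For Atm these were 0.822, 0.716 and 0.843 in DT and 4.14, 3.97 and 3.95 in saline, a ratio of 0.197 and the lowest of the 34. Both kinases thus lay outside the range of the other group, on opposite sides. The side of Atm was that of 84.4% of all genes tested, and the side of Chek1 that of 3.54%. Rad54l, Eme1, Fanca and Polq, which rose in CPM, overlapped between the groups here, with ratios of 1.19, 0.994, 1.01 and 0.988. Over roles, the median ratio was 0.373 for the checkpoint genes, 0.455 for end trimming, 0.456 for the genes that take joined molecules apart, 0.863 for the genes of strand invasion, 0.936 for BRCA1 and its partners, 0.976 for the Fanconi anemia members and 2.31 for the remaining 3.

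**Figure D4:**
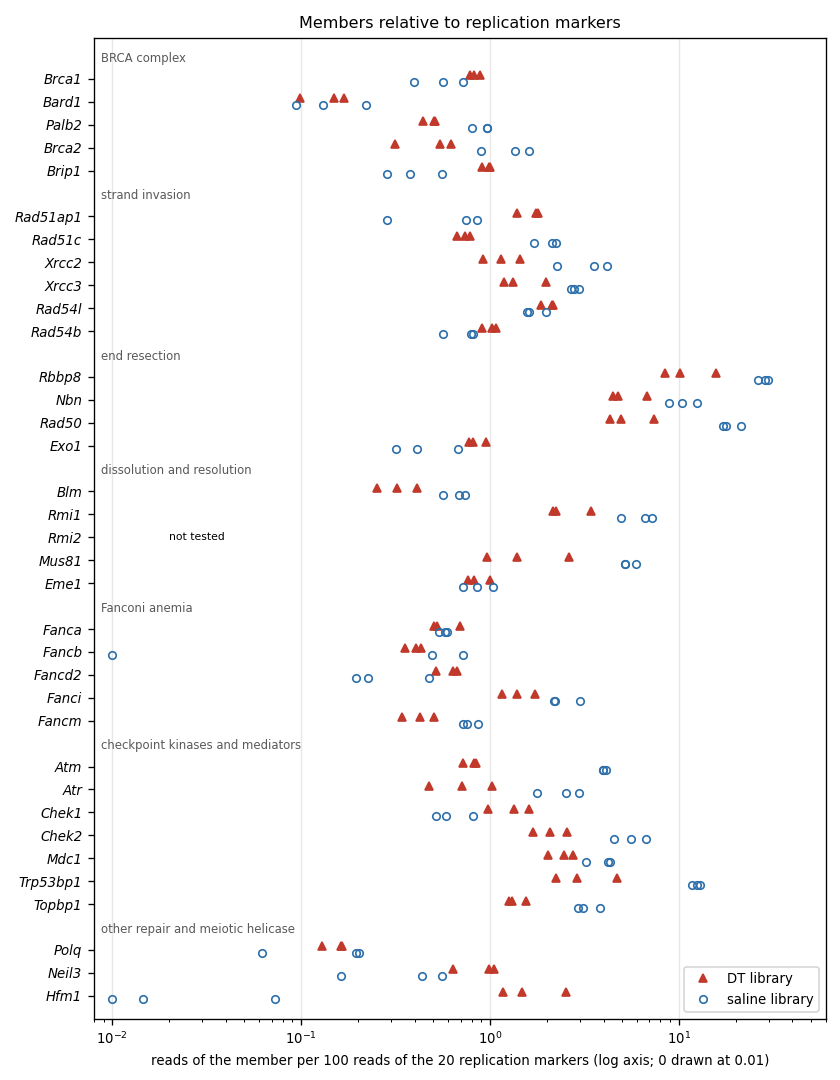
Reads of each member per 100 reads of the 20 replication markers, on a log axis with 0 drawn at 0.01, in the 3 DT libraries (triangles) and the 3 saline libraries (circles). The triangles lie left of the circles for 19 of the 34 members tested and right of them for 9, against 84.4% and 3.54% of all genes tested, whose median DT to saline ratio was 0.308.

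Other genes of the same pathways gave a mixed picture, set beside all genes tested, of which 17.2% rose and 11.9% fell. Of 30 further homologous recombination genes tested, 16 rose and 1 fell (median log2 0.60). The single-strand binding subunit Rpa1 (1.10), the AAA ATPase gene Fignl1 (2.87) and Parpbp (4.51), which restrains recombination, rose with small p-values. The gene that fell was Slx1b (-0.79, adjusted p = 0.0108), a subunit of a nuclease that cuts branched DNA. Of 16 further Fanconi anemia genes only Ube2t, the conjugating enzyme for the clamp, rose (1.67, adjusted p = 0.00674). Fancc, of the core complex, was at 463, 332 and 423 CPM in DT and 650.4, 811 and 1168 CPM in saline and fell (log2 -1.11, SE 0.21, adjusted p = 0.00461). The nuclease gene Fan1 fell by 1.79 (adjusted p = 0.00384), and the list median was -0.17.

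Of 30 further checkpoint genes 6 rose and 1 fell (median 0.06). The counts of this and the following lists stand beside 17.2% higher and 11.9% lower over all genes tested. Clspn, the adaptor between ATR and CHK1, rose by 3.20 (adjusted p = 0.000766), the fork protein Timeless by 2.05 (adjusted p = 0.000256) and the phosphatase Cdc25c, which CHK1 restrains, by 3.64 (adjusted p = 0.000107). Rad9b, a variant of a checkpoint clamp subunit, fell by 1.29 (adjusted p = 0.000336). Among the other repair routes, 1 of 10 genes of non-homologous end joining rose and 0 fell (median 0.19), namely Xrcc6 (0.51, adjusted p = 0.0427), which encodes Ku70. Of 20 base excision repair genes Fen1 (1.74), Ung (1.36) and Apex1 (0.55) rose and 0 fell (median 0.19). Nucleotide excision repair had 5 of 18 genes higher and 2 lower (median 0.30). Gtf2h1 (0.81), of the TFIIH complex, rose, and the damage sensor Xpc fell by 0.62 (adjusted p = 0.0153). Of 7 mismatch repair genes Msh3 rose (0.72, adjusted p = 0.0118) and 0 fell (median 0.36). Of 19 p53 target genes tested 9 rose and 0 fell (median 0.36), with Pmaip1 (4.74), Plk2 (2.28), Cdkn1a (1.92) and Gadd45a (1.77) having the smallest p-values. The other 10 were not called. Among them were Mdm2 (0.22, adjusted p = 0.319), Ccng1 (-0.38, adjusted p = 0.0746) and Sesn1 (-0.55, adjusted p = 0.0864). A p53 response was not tested.

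Of 12 tested genes that start within 1000 bases of a member on the other strand, 3 rose, 1 fell and 8 were not called. Of all genes tested 17.2% rose and 11.9% fell. The 3 were Mrpl27 by Eme1 (log2 0.58), Mospd2 by Fancb (0.54) and 1300017J02Rik by Topbp1 (5.41). The last had 12, 14 and 27 reads in DT and 0, 0 and 1 in saline. It passed the filter on low counts only through its DT reads and could hardly be called lower, which limits the count of 3. Nbr1, 194 bases from Brca1, was not called (log2 0.28, adjusted p = 0.0978), nor was Emc3, 30 bases from Fancd2 (0.15, adjusted p = 0.41). Dctn5, 56 bases from Palb2 (0.24, adjusted p = 0.198), and D6Wsu163e, 375 bases from Rad51ap1 (0.44, adjusted p = 0.062), were not called either. Zfyve21, 297 bases from Xrcc3, moved the other way: it averaged 45.4 ± 5.36 CPM in DT and 71.9 ± 3.79 CPM in saline and fell (log2 -0.66, adjusted p = 0.00707). Npat, 307 bases from Atm and known for histone gene transcription in S phase, averaged 40.7 ± 2.6 CPM in DT and 29.8 ± 7.26 CPM in saline and was not called (0.45, adjusted p = 0.113).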

How the data were processed

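Polyadenylated RNA of sorted cells was sequenced, 3 DT and 3 saline libraries. Reads were aligned to GRCm38 with GSNAP, per the submitters' processing notes. The aligner version, annotation and strand setting, not given in the sources used here, could shift reads between overlapping genes. The deposited count is the number of reads aligning uniquely to a gene model, and the deposited RPKM carries a size factor correction, per the file headers. Entrez identifiers were named from RefSeq (31049 of 36528). Counts were tested with edgeR 4.0.16 (R 4.3.3): filterByExpr (minimum count 10, total 15), TMM scaling, robust quasi-likelihood test without covariates, Benjamini-Hochberg adjustment over all 15132 genes tested. Log2 fold changes are DT minus saline. The fit was tested on simulated data. No 2 libraries were alike within sampling noise (chi-square over df 21.5 to 65.6 within groups).

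The 35 members and the gene lists were chosen with earlier results of these data known. Named genes are the members, up to 4 genes of each other list with the smallest p, neighbours by GENCODE M21 and sort markers. Others, such as Slx1b and the members given by rank, were named after their values were seen. Of the genes that the rule names, those not printed are counted in their lists. Alternatives were other scalings (DESeq2 1.42.0 size factors, library size), filters, DESeq2, limma-voom and limma (3.58.1) on log2(RPKM + 1), blocks from the submitters' sample identifiers, and each library left out. One gene of the lists is not reported here.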

Additional observations from a re-analysis of the deposited data

How the results depend on the processing

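Over 16 alternatives, 12 of the 21 members that rose passed in each (Brca1, Brip1, Rad51ap1, Rad54l, Rad54b, Exo1, Eme1, Fanca, Fancd2, Chek1, Neil3 and Hfm1), and 9 of the 13 not called passed in none. The other 9 were Bard1, Palb2, Polq, Fancm, Rbbp8, Nbn, Xrcc3, Fanci and Mdc1, the last 3 lost only in the larger number series below. No called member changed sign. Leaving out 1 library at a time gave 15 to 23 members higher, 0 lower and a median of 0.83 to 1.10. For all genes it gave 1564 to 2826 higher and 996 to 2045 lower, and for the summed members per replication marker reads a DT to saline ratio of 0.421 to 0.504 (added after seeing the data). The sample identifiers form 2 number series: in the larger, with 2 libraries per group, 12 members were higher, and over all genes 1097 were higher and 473 lower, with fewer libraries in the fit. The smaller holds 1 library per group and allows no test. With library size scaling, and with consecutive identifiers as a pair, 1 member, Atm, was lower. The median was 0.63 with limma on log2(RPKM + 1), where the pseudocount shrinks the change of low genes. The labels give no replicate numbers. Consecutive identifiers taken as a pair left 19 members higher, although such libraries deviated together only weakly (r of 0.052, 0.074 and 0.245), so they were not treated as paired. The calls kept in the fewest of the 16 alternatives were those of Palb2 (3), Rbbp8 (7), Bard1 (8) and Polq (9). Bard1 and Polq had under 100 reads in every library, which limits their precision.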

Other observations

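Hfm1 is known from meiosis, and 23 further genes of meiotic recombination were looked up, of which 14 passed the filter on low counts. Of these 6 were higher in DT and 0 were lower, while 17.2% of all genes tested were higher and 11.9% lower. Syce1, Tex15 and Smc1b, like Hfm1, passed the filter only through their DT reads. They could thus be called higher but hardly lower, which limits what the count shows. Syce1, a protein of the synaptonemal complex that holds paired chromosomes together, had 27, 47 and 44 reads in the DT libraries and 0 in each saline library. Tex15 had 90, 76 and 128 reads in DT and 0, 17 and 1 in saline (adjusted p = 0.00761), and Sycp3, of the chromosome axis, had 54, 143 and 67 reads in DT and 24, 11 and 16 in saline (adjusted p = 0.008). Smc1b, a meiotic cohesin subunit, was at 16 to 21 reads in DT and 0 to 4 in saline (adjusted p = 0.0235). Syce2 (log2 0.86, adjusted p = 0.0256) and Psmc3ip (0.82, adjusted p = 0.0316) rose as well and were more abundant: Syce2 was at 17.7 to 33.5 CPM in DT and 11.6 to 14.8 CPM in saline, and Psmc3ip, which assists strand exchange, at 19.4 to 39.3 CPM in DT and 15.2 to 17.2 CPM in saline.

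Among genes outside all lists, those whose levels over the 6 libraries followed the mean of the members that rose most closely (by Pearson correlation over libraries that form 2 groups) were Smc4, Zc2hc1b, Mirt1, Sugt1 and Myl12a. Smc4, a condensin subunit that compacts chromosomes, had 3079, 3451 and 5093 reads in DT and 1924, 1620 and 1735 in saline (log2 1.33, adjusted p = 0.00061). Sugt1 (0.52, adjusted p = 0.0123) and Myl12a (0.65, adjusted p = 0.0048) rose less. Zc2hc1b had 29 to 62 reads in DT and 0 to 3 in saline, and Mirt1, a long non-coding RNA, 72 to 195 in DT and 0 in each saline library.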
